A study of Mus musculus with 30 samples.

Results

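Granins and the enzymes that process peptide precursors were followed through 30 libraries of ribosome-associated RNA from the nucleus accumbens of female mice. The set held 10 of the 55335 genes in the count table, taken by symbol: the granins Scg2, Scg3, Scg5, Chga, Chgb and Vgf, the prohormone convertases Pcsk1 and Pcsk2, the proSAAS gene Pcsk1n, and carboxypeptidase E (Cpe). The set was built around Scg2, whose difference between D2 Susceptible and D2 Resilient libraries had passed the threshold in an earlier look at these counts. The members were thus chosen by measured values of that comparison, which is a description here and supports nothing.

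Polysomes were pulled down through the HA tag of RiboTag (RT), a tagged ribosomal protein, from D1-Cre-RT mice, which tag neurons with the D1 dopamine receptor, or A2A-Cre-RT mice, which tag the adenosine A2A receptor neurons that carry the D2 receptor. The latter libraries are called D2, as in their titles. Mice had gone through chronic witness defeat stress, a protocol based on seeing another mouse being defeated, and were sorted by social interaction into Resilient and Susceptible, beside Control mice. Each of the 6 groups (D1 or D2, and Control, Resilient or Susceptible) had 5 libraries. All mice carried Cre and the tag, Control mice included. Each library pooled 4 mice of similar social interaction ratio and was taken 24 h after the interaction test. No ages are given in the sources used here. Pull-down from a Cre line enriches one class but does not purify it, and each class comes from its own Cre line, so class and line cannot be told apart.

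Granins are acidic proteins of the regulated secretory pathway that gather in the trans-Golgi network and help to form dense core vesicles. Several of them are also precursors, cut at pairs of basic residues by the convertases PC1/3 (Pcsk1) and PC2 (Pcsk2), after which carboxypeptidase E trims the basic residues from the new ends. Medium spiny neurons release peptides such as enkephalin, dynorphin and substance P from these vesicles, and each of those peptides is made from a precursor cut in this way.

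Several of these genes are textbook targets of cyclic AMP signalling through the cAMP response element (CRE), so their promoters were read from RefSeq (GRCm38.p6), over the 250 bases before the start site. A promoter entry was matched for 8 of the 10 genes, all but Vgf and Cpe. The full element TGACGTCA, searched on both strands, was in 3 of these 8, against 1.55% of 32851 promoters of the same length. The 3 stretches below show it in capitals, 5′ to 3′ on the gene's strand, because these are the members in which the whole element was found.
Scg2: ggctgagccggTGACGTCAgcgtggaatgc
Chgb: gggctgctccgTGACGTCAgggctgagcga
Pcsk1: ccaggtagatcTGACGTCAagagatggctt
The Scg2 stretch is chr1:79440076-79440105 on the minus strand, and its element begins 68 bases before the RefSeq start. The Chgb stretch is chr2:132781559-132781588 on the plus strand, with the element 72 bases before the start. The Pcsk1 stretch is chr13:75089768-75089797 on the plus strand, with the element 78 bases before the start. The Scg2 and Chgb stretches fall inside an exon of GENCODE M21, whose models begin further upstream, and the Pcsk1 stretch does not. The shorter TGACG, which every full element contains, was in 7 of the 8 (Scg2, Scg3, Scg5, Chga, Chgb, Pcsk1 and Pcsk2) against 17.8% of promoters. The letters TATAAA, searched on the gene's strand, were in 0 of the 8 against 7.59%. A match of letters is a description of the window and not a bound site.

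Library totals over genes ran from 28996168 to 65882152 counts. All 10 genes passed the filter on low counts, and the lowest count of any of them in any library was 211, for Pcsk1 in D1 Susceptible replicate 1. In that library 54.9% of counts fell on Gm42418, a locus that overlaps ribosomal RNA sequence. D2 Susceptible replicates 1 and 2 had 15822 and 16525 genes with a count, against 19440 to 22375 in the other 28 libraries. D2 Resilient replicate 5 had the lowest index of class markers among D2 libraries. The index is the mean of 5 D2 markers less the mean of 7 D1 markers in log2 CPM (counts scaled by TMM-adjusted library size), and it was 1.40 in that library and up to 6.60 in the others of D2, against -0.92 to 0.82 in D1 libraries. Several results that use these 4 libraries are also given without some or all of them. Where no such value is printed, all 30 libraries were used. The class labels held in the Control libraries, where all 5 D2 markers analysed here were lower and 5 of 7 D1 markers were higher in D1 by the edgeR test.

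Levels between genes were compared as CPM per kilobase of exon, averaged over libraries. Cpe, the carboxypeptidase, was the most abundant of the 10 in every group, with 676 ± 45.4 CPM per kilobase in D1 Control (SD, n = 5) and 658 ± 92.0 in D2 Control. Over all 30 libraries it ranked 33rd from the top among those of the 19368 genes tested that had an annotated exon length. Scg2 (secretogranin II, ENSMUSG00000050711, chr1:79434669-79440120), the precursor of secretoneurin, came second in every group, with 491 ± 42.6 CPM per kilobase in D1 Control and 329 ± 39.6 in D2 Control, and ranked 64th from the top. The ranges of Cpe and Scg2 did not overlap within any of the 6 groups.

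The middle of the order was close. In D1 Control, Chgb (chromogranin B) stood at 225, Scg5 (the PC2 chaperone 7B2) at 171, Pcsk1n (proSAAS, an inhibitor of PC1/3) at 161, Chga (chromogranin A) at 160 and Vgf (the precursor of TLQP peptides) at 153 CPM per kilobase, and neighbours in this order overlapped. In D2 Control the third place went to Pcsk1n at 205, followed by Scg5 at 178, Chgb at 173, Vgf at 133 and Chga at 121. Pcsk2 (PC2) was 8th, Scg3 (secretogranin III, a binding partner of chromogranin A) 9th and Pcsk1 (PC1/3) 10th in all 6 groups. Pcsk2 had 52.4 ± 2.74 and Pcsk1 4.61 ± 1.11 CPM per kilobase in D1 Control, so the 2 convertases lay far apart in level. Dividing by the longest transcript kept the first pair and the last 3 in place and raised Pcsk2, from 53.6 to 89.8 over all libraries, and Chga, from 131 to 191.

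**Figure D1:**
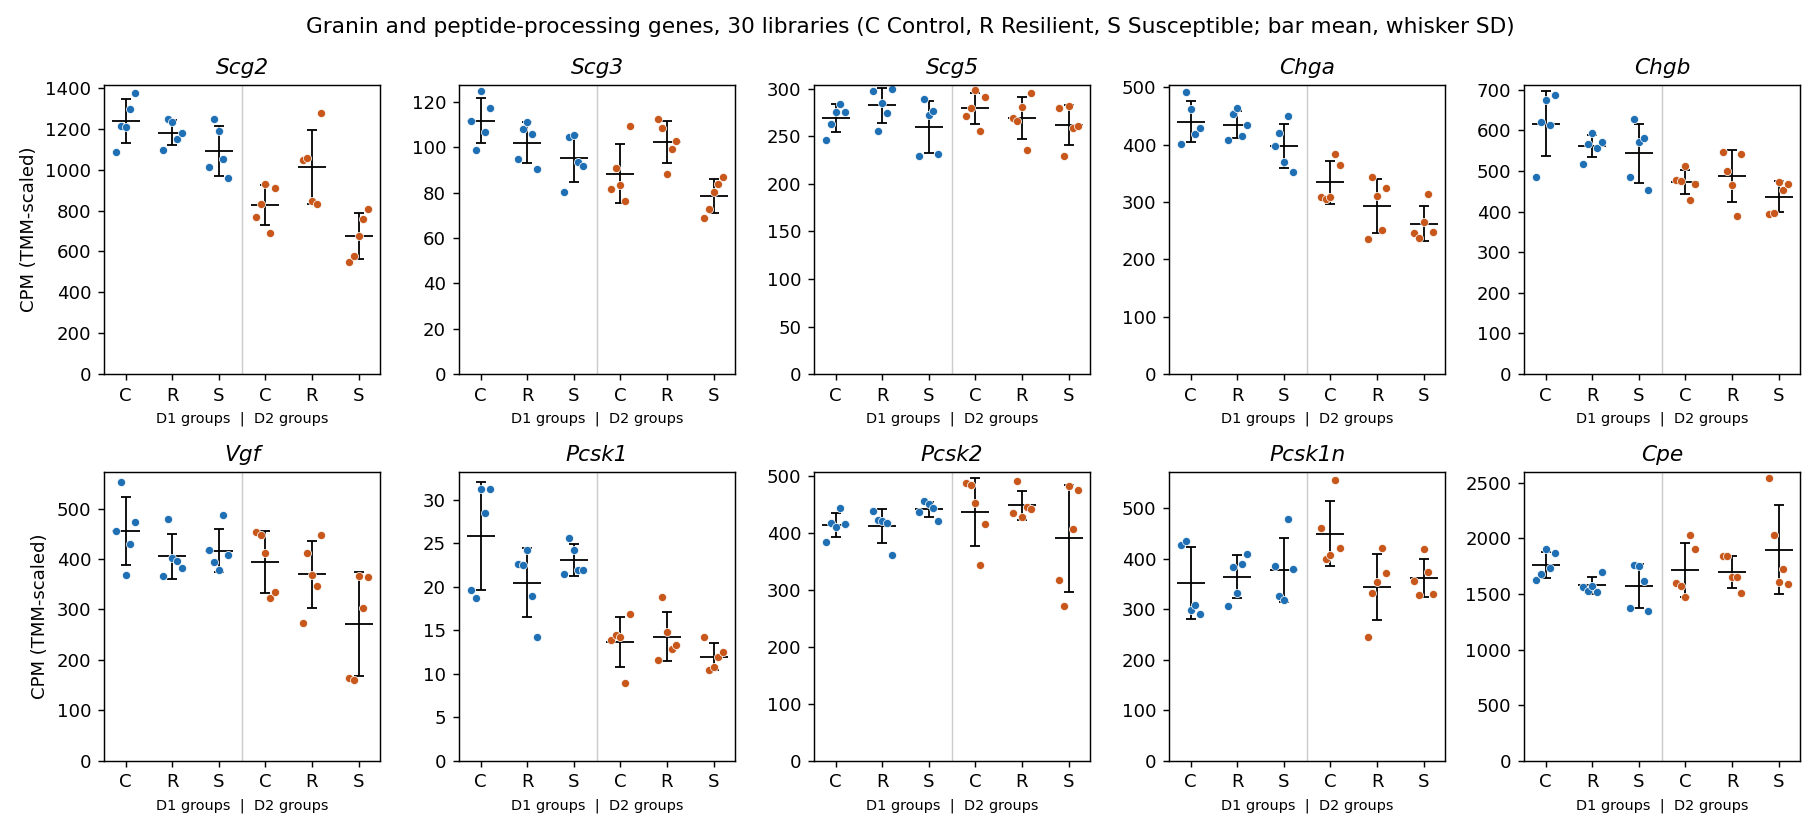
CPM on TMM-scaled library sizes (vertical axis, from 0) of each of the 10 genes in the 30 libraries, by group: Control (C), Resilient (R) and Susceptible (S) for D1 (blue) and D2 (orange). Points are libraries, the bar is the group mean and the whisker the SD. Scg2, Chga and Pcsk1 lie lower in D2 than in D1 Control without overlap, while Scg5 stays between 229 and 300 CPM throughout.

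In unstressed mice, 5 of the 10 genes were higher in D1 than in D2 libraries and none was lower: the granins Scg2, Scg3, Chga and Chgb, and the convertase Pcsk1. Over all genes tested, 8.3% passed in this comparison and 3.51% were higher in D1. The median log2 fold change, D1 over D2, was 0.28 for the 10 genes and -0.003 for all genes. The Control libraries were not among the groups compared in choosing the set. They do enter the model of 6 groups used here, and so the variance behind each test. The set was also made with earlier results of these data known. In bulk RNA of this kind, more cells of a type in the pull-down and more RNA per cell cannot be told apart.

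Scg2 stood at 1088, 1214, 1206, 1299 and 1373 CPM in the D1 Control libraries. In D2 Control it stood at 770, 834, 932, 691 and 910 CPM. Every D1 Control library was above every D2 Control library, a separation upward that 5.62% of all genes showed. The log2 fold change was 0.58 (SE 0.114, adjusted p = 0.000897, edgeR).

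Pcsk1 (ENSMUSG00000021587, chr13:75089826-75134861) had the widest gap of the 10. Its values were 19.6, 18.7, 31.2, 28.5 and 31.2 CPM in D1 Control. In D2 Control they were 13.9, 14.5, 14.2, 8.97 and 16.8 CPM. The groups did not overlap, but the D1 Control libraries spread over more than the gap between the groups. The log2 fold change was 0.92 (SE 0.168, adjusted p = 0.000409, edgeR).

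Chga (ENSMUSG00000021194, chr12:102554969-102565028) stood at 401, 491, 462, 419 and 430 CPM in D1 Control. In D2 Control it stood at 308, 306, 309, 384 and 365 CPM, below every D1 Control library. Its log2 fold change was 0.40 (SE 0.0998, adjusted p = 0.00974, edgeR). Chgb (ENSMUSG00000027350, chr2:132781278-132795079), the other chromogranin, overlapped between the classes through a single D1 library. It stood at 484, 622, 675, 614 and 687 CPM in D1 Control. It stood at 477, 476, 513, 430 and 468 CPM in D2 Control, which gave a log2 fold change of 0.38 (SE 0.0994, adjusted p = 0.0124, edgeR).

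Scg3 (ENSMUSG00000032181, chr9:75643189-75684056) was at 111, 98.9, 125, 107 and 118 CPM in D1 Control libraries. It was at 81.5, 90.8, 83.5, 76.5 and 110 CPM in D2 Control, where the highest library reached into the D1 range. Its log2 fold change of 0.34 (SE 0.0970, adjusted p = 0.0240, edgeR) was the weakest of the 5. The call was lost when any of D1 Control replicates 3 or 5 or D2 Control replicates 1, 3 or 4 was left out, with an adjusted p of up to 0.0784.

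The other 5 genes did not pass between the classes in Control mice. Pcsk1n (ENSMUSG00000039278, chrX:7919822-7924410) was the nearest to a difference and in the other direction, with 427, 434, 299, 309 and 291 CPM in D1 Control. In D2 Control it had 461, 400, 408, 557 and 422 CPM, and its log2 fold change of -0.35 (SE 0.137) did not pass (adjusted p = 0.117, edgeR). With voom the same gene passed, at -0.41 (adjusted p = 0.00345). Scg5 (chr2:113776362-113829121), Vgf (chr5:137026392-137033351), Pcsk2 (chr2:143546156-143816285) and Cpe (chr8:64592542-64693054) lay between -0.08 and 0.21 on the log2 scale.

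**Figure D2:**
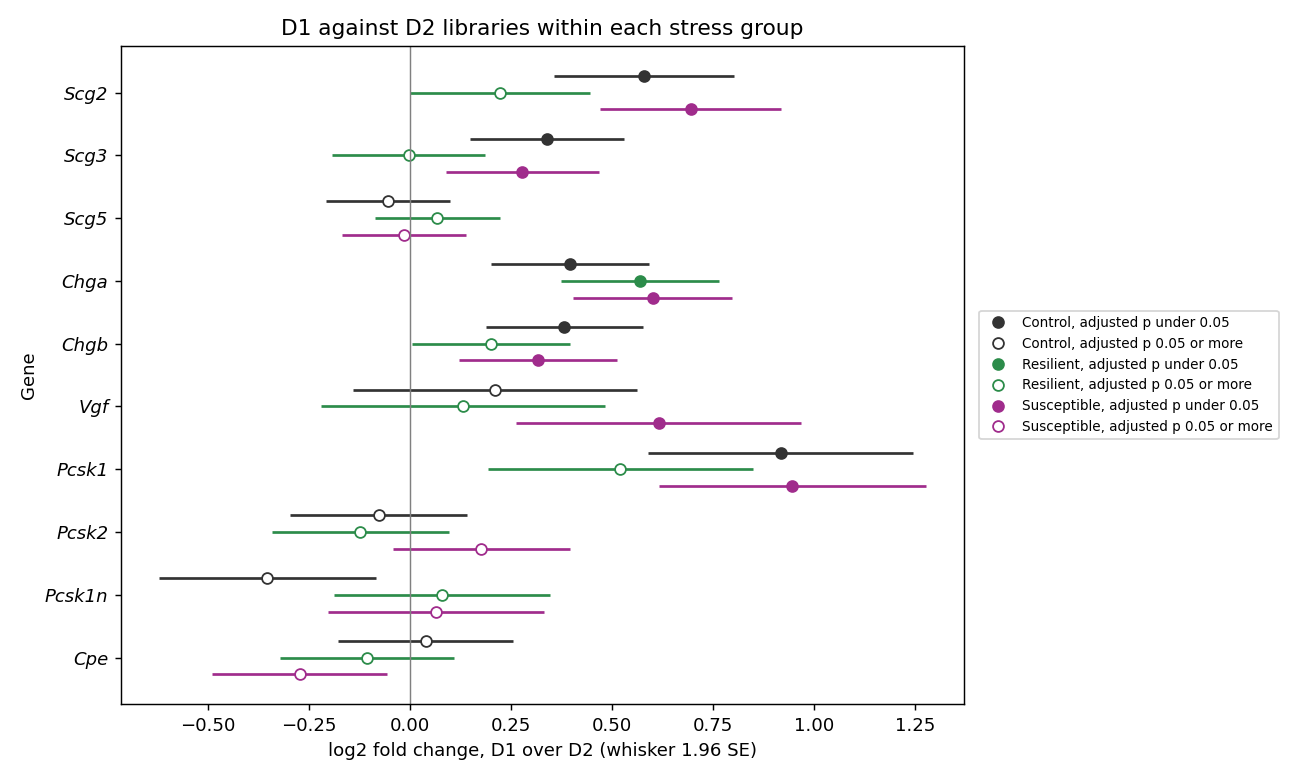
Log2 fold change of D1 over D2 libraries (horizontal axis) for each of the 10 genes within Control, Resilient and Susceptible mice. Whiskers show an approximate 95% interval from the standard error, which can leave out 0 at an unadjusted p above 0.05. Filled points passed an adjusted p of 0.05 (edgeR) and open points did not. Chga is filled in all 3 groups, and Scg5, Pcsk2, Pcsk1n and Cpe in none.

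Chga was the member whose class difference passed in all 3 stress groups. Its D1 Resilient libraries had 408, 453, 463, 415 and 435 CPM. The D2 Resilient libraries had 236, 343, 310, 250 and 325 CPM. The groups did not overlap, as was the case upward for 4.69% of all genes, and the log2 fold change was 0.57 (SE 0.10, adjusted p = 0.000215, edgeR).

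In Resilient mice Chga was the 1 gene of the 10 that passed, where 6.65% of all genes passed and 2.75% were higher in D1. The median over the 10 was 0.11. Pcsk1 came close, with a mean of 20.5 ± 4.00 CPM in D1 and 14.3 ± 2.78 CPM in D2 (SD, n = 5), and a log2 fold change of 0.52 (SE 0.167, adjusted p = 0.0556, edgeR). Leaving out any of 15 libraries brought Pcsk1 past the threshold, namely D1 Control replicates 1, 2, 3 and 5, D1 Resilient replicate 5, D1 Susceptible replicates 2 and 5, D2 Control replicates 4 and 5, D2 Resilient replicate 2 and all 5 of D2 Susceptible, with adjusted p-values down to 0.0117 over the 30 fits.

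In Susceptible mice 6 of the 10 were higher in D1 and 0 lower, where 23.9% of all genes passed and 10.5% were higher. They were Scg2, Scg3, Chga, Chgb, Vgf and Pcsk1, and the median over the 10 was 0.30. Without D2 Susceptible replicates 1 and 2, 3 of the 10 passed, and 3 passed without all 4 libraries that stand apart. With only the groups compared in the fit, which keeps that pair, 3 passed as well.

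Chga, Scg2 and Pcsk1 passed with and without those libraries. Chga had 397, 421, 369, 449 and 352 CPM in D1 Susceptible. It had 247, 238, 265, 313 and 248 CPM in D2 Susceptible. The ranges were apart, as for 4.8% of all genes in this direction, with a log2 fold change of 0.60 (SE 0.10, adjusted p = 7.83e-05, edgeR) and of 0.55 without the pair (adjusted p = 0.000861).

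Pcsk1 was at 21.4, 25.6, 24.2, 21.96 and 21.97 CPM in D1 Susceptible and at 14.2, 10.4, 10.8, 11.9 and 12.5 CPM in D2 Susceptible. These groups were apart too, with a log2 fold change of 0.95 (SE 0.168, adjusted p = 0.000174, edgeR), and of 1.00 without the pair. For Scg2 the log2 fold change was 0.70 (SE 0.114, adjusted p = 6.43e-05, edgeR) and 0.57 without the pair. The D2 Susceptible values of Scg2 helped to choose the set, so that figure is a description.

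Vgf, Chgb and Scg3 lost the call without D2 Susceptible replicates 1 and 2. Vgf (ENSMUSG00000037428) had 165 and 159 CPM in those 2 libraries and 366, 303 and 365 CPM in the other 3 of the group. In D1 Susceptible it had 417, 394, 378, 487 and 407 CPM, all above the D2 values. The log2 fold change was 0.62 (SE 0.180, adjusted p = 0.0134, edgeR), and it was 0.30 without the pair (adjusted p = 0.186).

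Chgb, at 0.32 (SE 0.0994, adjusted p = 0.0201, edgeR), came to 0.25 without the pair (adjusted p = 0.141). Scg3, at 0.28 (SE 0.0972, adjusted p = 0.0355, edgeR), came to 0.21 (adjusted p = 0.218). The Scg3 call was also lost when any single one of D2 Susceptible replicates 1 or 2 or D1 Susceptible replicates 2 or 3 was left out. Cpe did not pass and pointed the other way, at -0.27 (SE 0.110, adjusted p = 0.0688, edgeR). Without the pair the Cpe value was -0.04.

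Markers of other cells differed between the same libraries. The summed level of 10 interneuron markers was 371 to 531 CPM in the D1 Control libraries against 122 to 323 CPM in D2 Control, and 5 of the 10 were higher in D1 and 1 lower. In Susceptible mice the sums were 331 to 432 and 82.2 to 121 CPM, with 7 higher and 1 lower, and in Resilient mice 369 to 501 and 124 to 235 CPM, with 5 higher and 0 lower. The summed level of 10 endothelial and mural markers went the other way, at 25.5 to 56.9 CPM in D1 Control against 301 to 501 CPM in D2 Control, with 9 of 10 lower in D1. In Resilient and in Susceptible mice 9 of these 10 were also lower in D1. Of 8 astrocyte markers, 5 were lower in D1 in Control, 6 in Resilient and 6 in Susceptible mice. For 8 oligodendrocyte markers these counts were 0, 3 and 5, and for 8 microglia markers 0, 3 and 0. No astrocyte, oligodendrocyte or microglia marker was called higher in D1. No marker of these lists was at 0 in all libraries of a group. The part of these markers in the granin differences was not tested.

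None of the 10 genes passed the edgeR test for a change with stress against Control. In D1, 0 of 10 passed for Susceptible against Control, Resilient against Control and Susceptible against Resilient, and 0% of all genes passed in each. At an unadjusted p under 0.05, 1, 0 and 0 of the 10 stood out, against 2.4%, 2.6% and 3.49% of all genes. DESeq2 called 3, 1 and 8 genes of the whole table in these comparisons and voom 0, 173 and 15, and neither tool called any of the 10. The comparisons share groups, so the values below are given side by side and are not independent.

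Scg2 overlapped across the D1 groups. The D1 Resilient libraries had 1096, 1247, 1235, 1151 and 1177 CPM. The D1 Susceptible libraries had 1011, 1249, 1188, 1053 and 958 CPM. Both overlapped D1 Control, with log2 fold changes of -0.07 (SE 0.113) for Resilient and -0.18 (SE 0.113) for Susceptible against Control, and -0.11 (SE 0.113) for Susceptible against Resilient, each with an adjusted p of 1 (edgeR). Scg3 differed by -0.23 (SE 0.0971, adjusted p = 1, edgeR) in D1 Susceptible against Control, with 80.4, 104, 106, 93.7 and 91.9 CPM, and by -0.17 without D1 Susceptible replicate 1. Of the 10 genes, 8 had a value under 0 in each comparison with Control, and both comparisons use the same D1 Control libraries. The medians were -0.15 for Susceptible and -0.10 for Resilient, against -0.01 and -0.009 for all genes.

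In D2, 0 of 10 passed for Susceptible against Control, where 0.00516% of all genes passed, and 0 of 10 for Resilient against Control, where 0% did. At an unadjusted p under 0.05, 4 and 3 of the 10 stood out, against 15.7% and 4.2% of all genes. Scg2 is counted in both, though its D2 Resilient and Susceptible values helped to choose the set. DESeq2 called 255 and 5 genes of the whole table and voom 0 and 0, and neither tool called any of the 10. In Susceptible mice 9 of the 10 values were under 0, with a median of -0.18 against -0.03 for all genes.

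The 4 in D2 Susceptible against Control were Vgf, Chga, Pcsk1n and Scg2. Vgf was at 453, 447, 412, 324 and 334 CPM in D2 Control, and its log2 fold change was -0.54 (SE 0.180, adjusted p = 0.182, edgeR). Without D2 Susceptible replicates 1 and 2, its lowest libraries, the value was -0.20. Without D2 Susceptible replicate 3 alone it was -0.67 and passed (adjusted p = 0.0409), the only call on any of the 10 in this comparison among the 30 fits that each left out a library.

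Chga differed by -0.35 (SE 0.0998, adjusted p = 0.158, edgeR) and by -0.29 without those 2 libraries. Pcsk1n was at 356, 328, 419, 374 and 331 CPM in D2 Susceptible and differed by -0.31 (SE 0.137, adjusted p = 0.265, edgeR). Its D2 Resilient libraries, at 244, 332, 354, 422 and 372 CPM, also had a lower mean than Control, with a log2 fold change of -0.38 (SE 0.137, adjusted p = 1.00, edgeR). Both groups of stressed mice overlapped D2 Control.

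Scg2 pointed in opposite directions in the D2 groups, but these Resilient and Susceptible libraries chose it, so this is a description. Its D2 Resilient libraries had 1047, 1056, 847, 832 and 1275 CPM. The D2 Susceptible libraries had 550, 580, 676, 758 and 809 CPM. D2 Control lay between and overlapped both, with log2 fold changes of 0.29 (SE 0.113, adjusted p = 1.00, edgeR) for Resilient and -0.29 (SE 0.113, adjusted p = 0.216, edgeR) for Susceptible.

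Without D2 Susceptible replicates 1 and 2 the latter value was -0.15. D2 Resilient replicate 5, the library with the lowest index of D2 over D1 markers, was also the highest in Scg2. Without all 4 libraries that stand apart, Resilient against Control came to 0.20. Scg3 followed in Resilient, at 113, 108, 88.5, 99.5 and 103 CPM, with a log2 fold change of 0.21 (SE 0.0970, adjusted p = 1.00, edgeR).

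**Figure D3:**
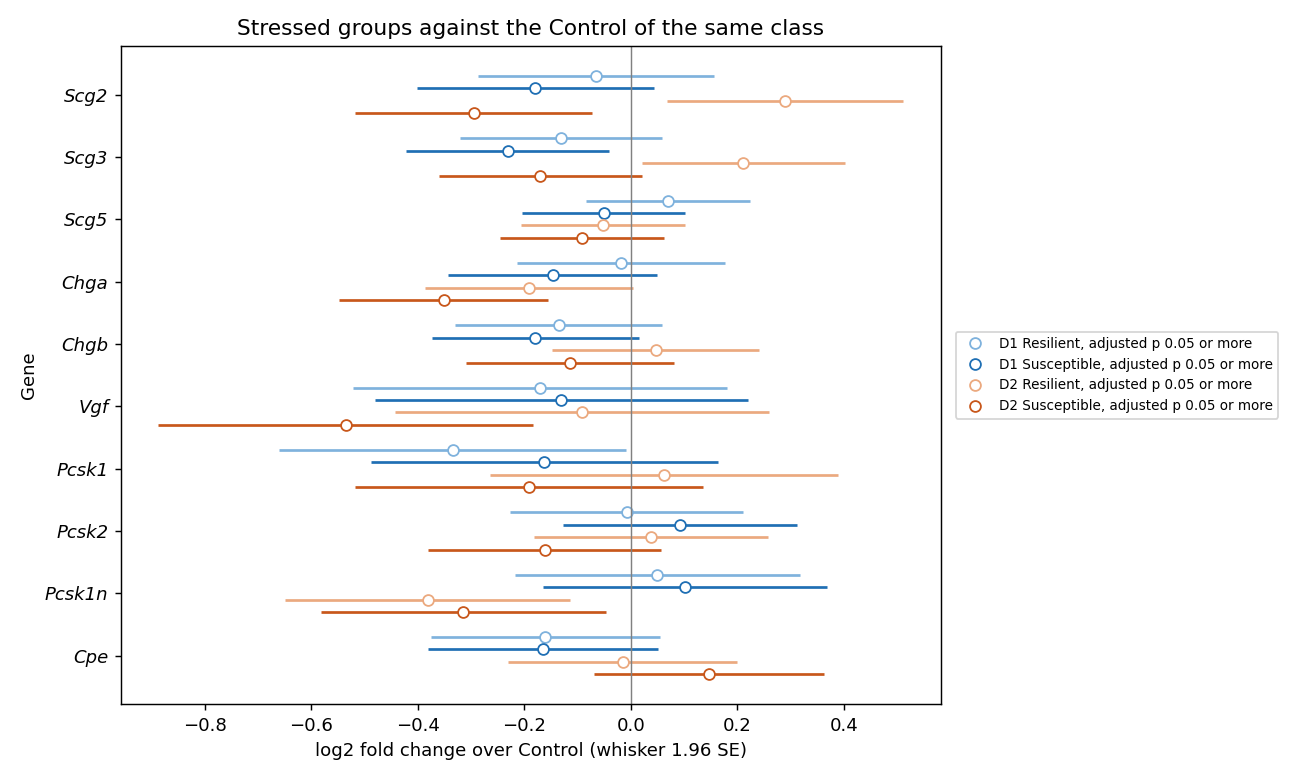
Log2 fold change of Resilient and Susceptible libraries over the Control of the same class (horizontal axis) for each of the 10 genes, in D1 (blue) and D2 (orange). Whiskers show an approximate 95% interval from the standard error, which can leave out 0 at an unadjusted p above 0.05. All points are open because none passed an adjusted p of 0.05 (edgeR). The D2 Resilient and D2 Susceptible points of Scg2 lie on opposite sides of 0, at 0.29 and -0.29. Both groups took part in choosing Scg2, so this is a description.

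The comparison that chose the set was D2 Susceptible against D2 Resilient. Scg2 was lower in every Susceptible library than in every Resilient one, with means of 674 ± 111 and 1011 ± 182 CPM (SD, n = 5), and a log2 fold change of -0.58 (SE 0.114, adjusted p = 0.0435, edgeR), just inside the threshold. Scg3 was just outside it, at -0.38 (adjusted p = 0.0653), with 68.9, 72.8, 80.3, 83.9 and 87.0 CPM in Susceptible, all below the Resilient libraries. Such a separation downward was seen for 0.883% of all genes. The call on 1 of the 10 stands beside 0.0516% of all genes, and nothing is read from it. Vgf followed at -0.44 (SE 0.179, adjusted p = 0.172, edgeR).

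Without D2 Susceptible replicates 1 and 2 the Scg2 value was -0.44 (adjusted p = 0.484), and without all 4 libraries that stand apart it was -0.35 (adjusted p = 0.701). Vgf came to -0.10 without the pair. The Scg2 call was lost in 13 of the 30 fits that left out a library, which were those without D1 Control replicates 2, 3 or 4, D1 Resilient replicates 1 or 2, D1 Susceptible replicate 4, D2 Control replicates 1 or 2, D2 Resilient replicates 1, 2 or 5, or D2 Susceptible replicates 1 or 2. The sum of the 7 D1 markers was 371 to 1858 CPM in D2 Resilient and 281 to 637 CPM in D2 Susceptible. The medians were close, at 386 and 368 CPM. The index of D2 over D1 markers was 1.40 to 4.82 (median 4.63) and 4.90 to 6.60 (median 5.01). D2 Resilient replicate 5 held the 1.40, and the next lowest of its group was 4.14. The part of these markers in the Scg2 values was not tested.

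Whether D1 and D2 changed differently was tested for each stress comparison, and 0 of the 10 passed in any, as did 0% of all genes. At an unadjusted p under 0.05, 1, 3 and 2 of the 10 stood out for Susceptible against Control, Resilient against Control and Susceptible against Resilient, against 7.79%, 4.99% and 12.4% of all genes. Scg2 is counted for Resilient against Control and Susceptible against Resilient, with D2 values that helped to choose the set. DESeq2 called 5, 7 and 47 genes of the whole table and voom 0, 169 and 0. For Scg2 the D1 change minus the D2 change was 0.12 (SE 0.160, adjusted p = 0.844), -0.36 (SE 0.160, adjusted p = 0.945) and 0.47 (SE 0.160, adjusted p = 0.275, edgeR) in that order. Scg3 gave -0.34 (SE 0.137, adjusted p = 0.928) for Resilient against Control and 0.28 (adjusted p = 0.40) for Susceptible against Resilient. Pcsk1n gave 0.42 and 0.43 in the 2 comparisons with Control (SE 0.193 in each, adjusted p = 0.637 and 0.944, edgeR). A stress change that differs between the classes was therefore not shown for any of these genes.

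Within groups, some of the 10 genes varied together from library to library. Pearson's r was taken over the 30 libraries on log2 CPM with each group's mean removed, and is given as a description, since libraries share depth and cell makeup. The median over the 45 pairs was 0.25, with 35 pairs above 0 and 6 above 0.5. The 2 granins Scg2 and Chgb had an r of 0.78, which was 0.75 without the 4 libraries that stand apart, 0.84 in D1 and 0.82 in D2. Scg2 with Scg3 had 0.63, Scg5 with Chgb 0.69 and Scg2 with Scg5 0.52. Vgf with Pcsk2 had the highest value, 0.79, but this was 0.05 in D1 libraries and 0.89 in D2 libraries. D2 Susceptible replicates 1 and 2, the lowest libraries for both genes, take part in it, and without all 4 libraries it was 0.54.

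Over the 30 libraries together, Cpe and Pcsk1n ran against several of the others. Cpe with Vgf had an r of -0.73 and Cpe with Pcsk2 -0.58, and Cpe stood at 2541 and 2030 CPM in D2 Susceptible replicates 1 and 2, beside 2034 CPM in D2 Control replicate 4. The classes differed for Cpe. Cpe with Vgf was -0.33 in D1 and -0.84 in D2 libraries, and Cpe with Pcsk2 was 0.12 and -0.73. Cpe with Scg2 was 0.73 in D1 and -0.58 in D2, with Chgb 0.82 and -0.51, and with Scg5 0.86 and -0.21. Without the 4 libraries that stand apart, Cpe was at -0.54 with Vgf, -0.42 with Pcsk2 and 0.25 with Scg2. Pcsk1n was on the negative side with Pcsk1, at -0.55, as well as with Scg3, at -0.44, with Chgb, at -0.42, and with Scg2, at -0.37. These 4 values were -0.59, -0.55, -0.56 and -0.66 without the 4 libraries that stand apart.

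**Figure D4:**
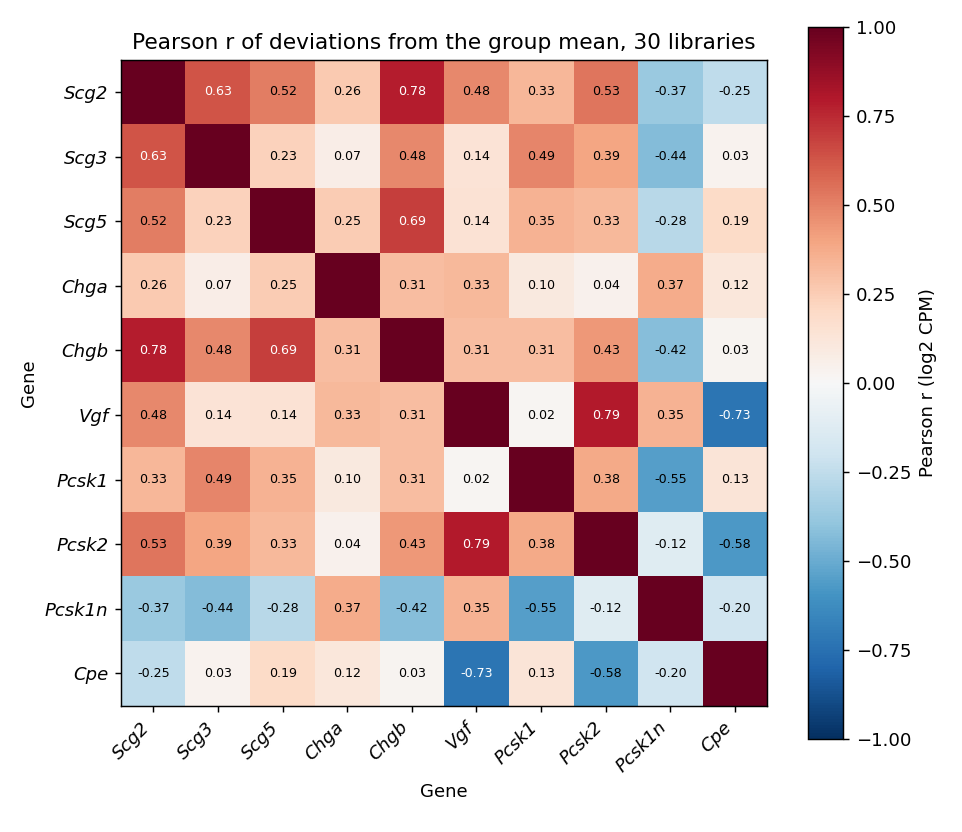
Pearson r between each pair of the 10 genes over 30 libraries, from log2 CPM with the mean of each of the 6 groups removed (red positive, blue negative, the value printed in each cell). Scg2 and Chgb stand at 0.78 and Vgf and Pcsk2 at 0.79, while Cpe and Pcsk1n hold the negative values, down to -0.73 for Vgf with Cpe.

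Among 8855 other genes of at least 10 CPM, those most like Scg2 by the same measure were Morf4l2 at 0.87, Zcchc18 at 0.84, Gars (glycyl-tRNA synthetase) at 0.83, Copb2 (a subunit of the COPI vesicle coat) at 0.83 and Usp14 (a proteasome-associated deubiquitinase) at 0.82. Against all genes of at least 10 CPM, a wider set that includes the members, Chgb, at 0.78, was above 99.7% in its likeness to Scg2. Scg3 was above 96.2% and Pcsk1n above 10.2%. Without the 4 libraries that stand apart, the 5 genes had values of 0.81, 0.76, 0.84, 0.79 and 0.77, and ranked 6, 50, 2, 16 and 30 by this measure, so 1 of them, Gars, was still among the first 5.

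The wider pathway was taken as 4 lists. Between the classes in Control mice, 7 of 15 neuropeptide precursors were higher and 2 lower in D1. Npy (neuropeptide Y) was higher by 1.3, Sst (somatostatin) by 1.57 and Vip (vasoactive intestinal peptide) by 1.89 on the log2 scale, and these 3 are also on the interneuron list. Penk, the enkephalin precursor and a marker of the D2 class, was lower by -2.70, and Cartpt, the CART precursor, by -0.50. Of 13 genes of dense core vesicle machinery, 2 were higher and 0 lower, namely Cadps2 and Cadps, the CAPS proteins that prime vesicles for release.

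Cadps2 had a mean of 67.5 ± 9.53 CPM in D1 and 27.0 ± 7.09 CPM in D2 Control (SD, n = 5), a log2 fold change of 1.32 (SE 0.189, adjusted p = 1.91e-05, edgeR). Cadps had 127 ± 18.0 and 76.1 ± 12.5 CPM, a log2 fold change of 0.74 (SE 0.107, adjusted p = 1.96e-05, edgeR). Both CAPS genes were called in the same direction as Scg2, Scg3, Chga, Chgb and Pcsk1, and no relation between them was tested. Of 12 other processing enzymes, 2 were higher and 0 lower, Pam (the amidating enzyme) by 0.45 and Pcsk5 (the convertase PC5/6) by 0.53. Of 11 peptide-degrading enzymes, 10 could be tested and 0 differed.

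In Resilient mice 8 precursors were higher and 1 lower in D1, with 3 vesicle genes higher (Cadps2 by 1.23, Cadps by 0.52 and the vesicle calcium sensor Syt7 by 0.47) and no enzyme of either kind past the test. In Susceptible mice the counts were 9 and 1 for precursors, 7 and 1 for vesicle genes, 3 and 1 for other processing enzymes, and 0 and 1 for peptide-degrading enzymes. Cadps2 was higher there by 1.58, Cadps by 0.81 and Hid1, a gene of vesicle formation, by 0.48, and Syt4 was lower by -0.52. Pam was higher by 0.58, Pcsk5 by 0.53 and Ctsl (cathepsin L) by 0.42. Tpst2, which sulfates tyrosines, was lower by -0.57 and Npepps, a cytosolic aminopeptidase, by -0.31. These counts stand beside the shares of all genes given above for each stress group. They use all 30 libraries, and no list count without D2 Susceptible replicates 1 and 2 is given. Without that pair, the genes called between the classes in Susceptible mice fell from 4621 to 2123 in the whole table. Syt4 was uneven in D2 Susceptible, with a mean of 515 ± 192 CPM (SD), a median of 403 and a maximum of 786 CPM.

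Across the stress comparisons, and in the tests of D1 changes against D2 changes, 0 genes of the 4 lists passed. The nearest was Vip in D2 Susceptible against Control, at -2.0 (adjusted p = 0.0526, edgeR), with a mean of 1.52 ± 0.393 CPM against 6.09 ± 4.97 CPM (SD, n = 5). The next of the precursors there was Tac2, the neurokinin B precursor, at -0.89 (adjusted p = 0.159). Among vesicle genes Cadps2 was nearest, at -0.59 (adjusted p = 0.175), and among other processing enzymes Tpst2, at 0.48 (adjusted p = 0.160). The summed interneuron markers were 82.2 to 121 CPM in D2 Susceptible and 122 to 323 CPM in D2 Control, and their part in the Vip value was not tested.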

How the data were processed

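RNA from HA immunoprecipitation of polysomes was made into SMART-Seq v4 libraries from 10 ng each, per the labels' protocols. The authors deposited raw counts of reads per gene for 30 libraries. HISAT2, HTSeq and GRCm38 (mm10) are named in the submitters' processing notes, without versions, and the strand setting is not given in the sources used here. Exons of Pcsk2 and Pcsk1n overlap antisense genes, so those counts are less certain. The 5 lines of unassigned reads, 10.1% to 53.3% of a library, were left out. Identifiers were matched to GENCODE M21, with a symbol for 55154 of 55335. The labels call the libraries of a group biological replicates.

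Genes were kept by filterByExpr (minimum count 10, minimum total 15), which left 19368. Counts were scaled by TMM and tested in 1 model of 6 groups with the quasi-likelihood F test of edgeR 4.0.16 in R 4.3.3, with Benjamini-Hochberg adjustment over all genes in each of 12 comparisons and a threshold of 0.05. The common biological coefficient of variation over all genes tested was 41.4%, which limits small changes. It is not the spread of the 10 genes, which their own SD and SE values show. Alternatives were DESeq2 1.42.0, its size factors, voom (limma 3.58.1), no filter, only the groups compared, a replicate block, and leaving out libraries. Each SE was worked back from the log2 fold change and its F statistic. The fit was tested on simulated data. The genes and lists were chosen with earlier results of these data known. A fold change was printed for a member at an unadjusted p under 0.05 and for Scg2 in each stress comparison. Up to 3 genes a direction were named from each list, by adjusted p, or up to 2 by unadjusted p where none passed.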

Additional observations from a re-analysis of the deposited data

Results flagged for a closer look

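Each of the 10 genes was checked in each of the 6 groups, 60 sets of 5 libraries, for a highest or lowest library whose gap to its nearest neighbour took more than 0.710 of the whole range. Chance flags about 1 set in 20, and 2 were found, both for Pcsk2. In D1 Resilient, replicate 5 was lowest at 361 CPM, with the next library at 418 and the highest at 438 CPM. In D2 Resilient, replicate 2 was highest at 492 CPM, with the next at 445 and the lowest at 428 CPM.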

How the results depend on the processing

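Each of the 10 genes had at least 211 counts in every library. For D1 against D2 in Control, 5 of the 10 genes passed, and 4 to 5 when any one library was left out. In Resilient mice 1 passed, against 2 with DESeq2, with only the groups compared, without D2 Susceptible replicates 1 and 2 and without all 4 libraries that stand apart, 4 with voom, and 1 to 2 with a library left out. In Susceptible mice 6 passed, against 3 with only the groups compared, without that pair and without all 4, and 5 to 8 with a library left out. For D2 Susceptible against Resilient 1 passed, against 2 with DESeq2, 0 with only the groups compared, with voom, without the pair and without all 4, and 0 to 3 with a library left out. For D2 Susceptible against Control 0 passed, and 0 to 1 with a library left out. The Cpe difference between classes in Susceptible mice turned to 0.018 with voom, from -0.27. The Scg2 difference between D1 and D2 changes for Susceptible against Control turned to -0.022 without the pair, from 0.12. Beyond the alternatives' own samples or genes, the cause was not tested.

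Over all genes the calls moved more. D1 against D2 gave 1608 genes in Control (5491 with voom, 2696 with only the groups compared, 3134 without the pair, 3302 without all 4), 1288 in Resilient (3416, 2184, 2305 and 2551) and 4621 in Susceptible (915 with only the groups compared, 2123 and 2163). D2 Susceptible against Resilient gave 10 (976 with DESeq2, 1 with voom, 0 without the pair), and against Control 1 (255 with DESeq2). DESeq2 size factors moved the median of all genes by at most 0.0191 on the log2 scale. Replicate numbers are shared between groups, but over 75 same-numbered pairs r was -0.143 to 0.0682, with 0 over 0.1. Of 30 libraries, 1 was closest to its own number. No pairing by number was thus seen, and a shared batch was not tested. With the replicate block, 5, 1 and 6 of the 10 genes passed between classes in Control, Resilient and Susceptible, 1 in D2 Susceptible against Resilient, and 0 elsewhere. The block gave 1497, 1230 and 4173 genes in all between the classes.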

Other observations

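The precursors of the classical medium spiny neuron peptides were measured in the same libraries. Pdyn, the dynorphin precursor, had a mean of 574 ± 54.9 CPM in D1 Control (SD, n = 5), and its D2 Control libraries ran from 41.1 to 275 CPM. Tac1, the substance P precursor, had 816 ± 82.2 CPM in D1 Control, and 193 to 557 CPM in D2 Control. Penk had 1303 ± 295 CPM in D1 and 8456 ± 1614 CPM in D2 Control libraries. The log2 fold changes, D1 over D2, were 2.33 for Pdyn, 1.38 for Tac1 and -2.70 for Penk, all 3 past an adjusted p of 0.05 by edgeR. All 3 are also markers that define the classes.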
